A study of Mus musculus with 4 samples.

Results

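The genes described here are 10 core genes of transforming growth factor beta (TGF-beta) signalling, taken by symbol from the 35927 gene rows of the count table: the ligand gene Tgfb1, the receptor genes Tgfbr1 and Tgfbr2, and the Smad genes Smad1 to Smad7. All 10 were present and all 10 passed the filter on low counts, as they would have on the control libraries alone. Their mRNA was measured by sequencing in erythroid progenitors of E13.5 mouse fetal liver on a C57BL/6 background, sorted as CD71+ (transferrin receptor) and TER119- (a marker of later red cell precursors). The control group joined Rcor1+/+ and Rcor1+/- embryos, in a proportion not given in the sources used here, and the mutant group held Rcor1-/- embryos. Rcor1 encodes CoREST, the scaffold that joins the histone demethylase Kdm1a to histone deacetylases in a repressor complex. The groups had 2 libraries each, made from RNA of pooled samples whose number is not given, so the p-values measure the spread between pools. The comparison asks which of these genes differ in level when Rcor1 is lost.

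TGF-beta binds the type II receptor Tgfbr2, which then activates the type I receptor Tgfbr1. The activated type I receptor phosphorylates the receptor-regulated Smads, Smad2 and Smad3, which join the common partner Smad4 and enter the nucleus. Bone morphogenetic proteins (BMPs) use other receptors and Smad1, Smad5 and Smad9, and Smad6 and Smad7 are inhibitory Smads that close the loop as feedback genes. In red cell formation TGF-beta is known as a brake on progenitor growth that favours maturation, and BMP signalling through Smad5 is known for its part in the expansion of stress erythroid progenitors in fetal liver and spleen.

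The sequences just upstream of 4 members are shown because the results turn on a pair of paralogs that moved differently (Smad1 and Smad5) and on a pair of receptor genes that both rose (Tgfbr1 and Tgfbr2). Each is the 250 bases before an annotated start from RefSeq on GRCm38.p6, printed 5′ to 3′ on the gene's strand. Capitals mark AATC or its reverse complement GATT, the core bound by Gfi1 and Gfi1b, repressors that recruit CoREST, and GGCGCC, a box bound by BMP Smads.
Smad1, chr8:79399429-79399678, minus strand: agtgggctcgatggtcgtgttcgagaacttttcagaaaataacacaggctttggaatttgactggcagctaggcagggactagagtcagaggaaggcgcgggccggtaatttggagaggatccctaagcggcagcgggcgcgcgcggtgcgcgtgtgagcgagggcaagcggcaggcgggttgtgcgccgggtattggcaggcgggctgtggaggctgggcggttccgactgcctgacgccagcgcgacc
Smad5, first of 3 starts, chr13:56702760-56703009, plus strand: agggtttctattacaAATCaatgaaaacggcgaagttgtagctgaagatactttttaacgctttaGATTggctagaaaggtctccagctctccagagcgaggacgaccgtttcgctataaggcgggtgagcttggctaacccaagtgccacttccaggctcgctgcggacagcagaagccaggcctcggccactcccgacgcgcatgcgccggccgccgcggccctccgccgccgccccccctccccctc
Tgfbr1, first of 2 starts, chr4:47352972-47353221, plus strand: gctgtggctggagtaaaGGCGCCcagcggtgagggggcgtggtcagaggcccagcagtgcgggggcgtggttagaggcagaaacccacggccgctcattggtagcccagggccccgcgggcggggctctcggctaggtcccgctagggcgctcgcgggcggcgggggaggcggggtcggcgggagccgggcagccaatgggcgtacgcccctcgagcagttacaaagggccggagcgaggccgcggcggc
Tgfbr2, chr9:116175364-116175613, minus strand: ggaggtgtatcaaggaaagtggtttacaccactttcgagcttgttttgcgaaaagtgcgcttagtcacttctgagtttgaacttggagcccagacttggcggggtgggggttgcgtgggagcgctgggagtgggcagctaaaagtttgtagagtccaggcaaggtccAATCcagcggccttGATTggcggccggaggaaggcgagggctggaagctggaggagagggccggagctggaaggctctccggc

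RefSeq windows of 300 bases (250 before the start and 50 from it on) were at hand for 7 of the 10 members, and 5 motifs were searched on both strands with no overlap between matches in the windows shown. AATC is short and occurred in 73.1% of all 32851 such windows. The Smad1 window held it once, starting 5 bases past the start and so outside the printed stretch, the Smad5 window shown held it 2 times, the Tgfbr2 window 2 times and the first Tgfbr1 window not at all, while the second Tgfbr1 window, not shown, held it 5 times and the second Smad5 window once. GGCGCC, present in 11.9% of windows, was found in the first Tgfbr1 window and in 2 of the 3 Smad5 windows. These 2 Smad5 windows overlap and hold the same GGCGCC, 23 bases past the first start and so outside the printed stretch. The match of AATC in the second Smad5 window is likewise the GATT that lies 185 bases before the first start. The GATA site letters AGATAA (11.2% of windows) were found only in the third Smad5 window among the members, and TGATAA (9.05%) in none. The Smad6 window held the full Smad palindrome GTCTAGAC, which only 0.213% of windows held, and the site is shown for that reason with its capitals on the palindrome.
Smad6, chr9:64022045-64022074, minus strand: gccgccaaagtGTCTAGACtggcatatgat
The palindrome began 4 bases before the annotated start of Smad6, a gene whose level did not differ between groups (values given with the inhibitory Smads). These matches describe letters in the reference, and no binding was measured.

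Library totals ran from 15053229 to 26892375 counts. Expression levels are in CPM, for which each count was divided by its library total times a TMM factor between 0.951 and 1.05, with the SD over n = 2 libraries. Changes are log2 fold changes of mutant over control with their standard errors and Benjamini-Hochberg adjusted p from edgeR's quasi-likelihood test, called at 0.05. The targeted gene Rcor1 fell by 1.09 on the log2 scale, from 167.0 ± 10.5 to 78.3 ± 0.723 CPM. The erythroid markers of the sorted population were present, with a summed level of 7195.8 to 7300.6 CPM in controls and 4803.2 to 4921.0 CPM in mutants, and 9 of 10 fell. Over all tested genes 28.3% were called higher and 29.2% lower. Summed marker levels of other cell types were higher in mutants: megakaryocyte genes (10 of 12 rose) went from 132.4 to 138.5 CPM up to 388.6 to 391.8 CPM, monocyte and macrophage genes (5 of 11 tested rose, Cd163 at 0) from 18.6 to 19.2 up to 31.0 CPM, endothelial genes (5 of 10) from 162.2 to 164.8 up to 173.3 to 174.7 CPM, hepatoblast genes (8 of 11 tested) from 981.1 to 996.2 up to 1345.7 to 1348.0 CPM and mesenchymal genes (8 of 10) from 8.34 to 8.36 up to 24.7 to 27.0 CPM. Of marker genes that would pass the filter on controls alone, 3 of 3 mesenchymal and 2 of 8 monocyte and macrophage genes rose. It was 9 of 11 for megakaryocyte, 5 of 9 for endothelial and 8 of 10 for hepatoblast genes. Over all such genes 25.9% were called higher. The megakaryocyte gene Vwf fell (36.2 to 24.1 CPM). Most of the endothelial sum was Egfl7, not called (150.1 CPM in controls, 140.1 in mutants). The part of these cell types in the results on the TGF-beta genes was not tested. In these bulk libraries fewer cells of a type and less RNA per cell cannot be told apart.

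Of the 10 genes, 6 were called higher in the mutant (Smad1, Tgfbr2, Smad7, Tgfbr1, Tgfb1 and Smad4), 1 was called lower (Smad3) and 3 were not called (Smad2, Smad5 and Smad6). Over all 13140 tested genes 57.5% were called, 28.3% higher and 29.2% lower (3723 and 3835 genes; 5112 and 2553 with library totals alone, where the calls of the 10 genes were as here). The groups did not overlap for 8 of the 10 genes, against 77.9% of all tested genes, so that separation alone sets none of them apart. The median log2 fold change of the 10 was 0.22, against 0.01 over all tested genes. One gene, Smad1, rose at least 2-fold, as 11.7% of tested genes did.

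**Figure D1:**
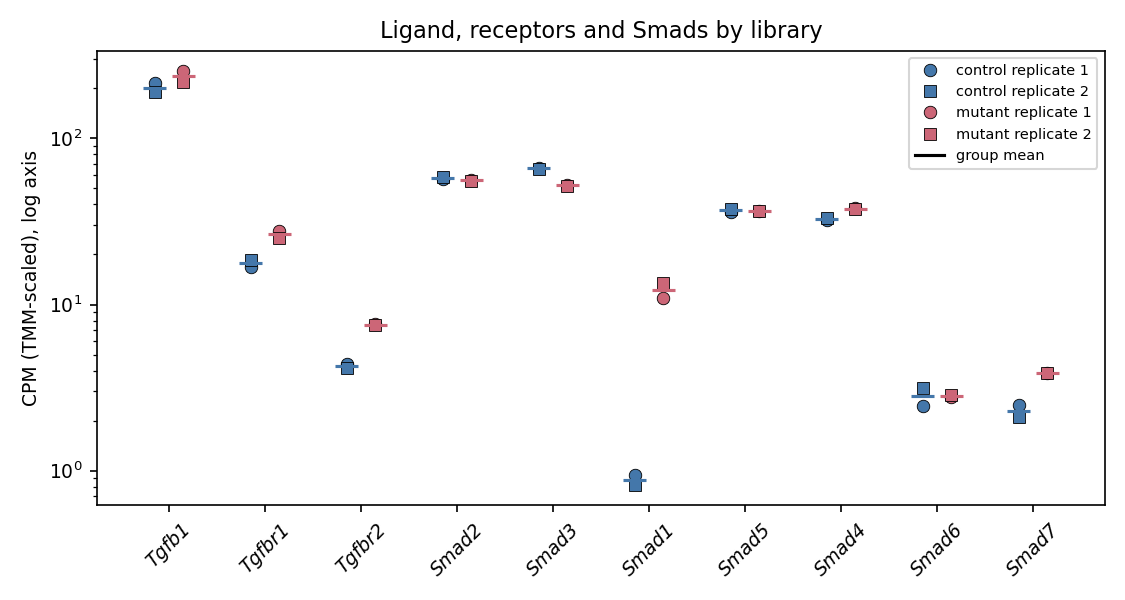
CPM of each gene (log axis) in the 2 control and 2 mutant libraries, with short lines at the group means. Smad1 lies below 1 CPM in both controls and above 10 CPM in both mutants, while the points of Smad2, Smad5 and Smad6 lie close together.

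The ligand gene Tgfb1 was the most abundant of the 10 per length in both groups. The control pools gave 214.3 and 189.5 CPM, the mutant pools 252.8 and 219.7 CPM. Both mutants were above both controls, but the gap between the higher control and the lower mutant was smaller than the spread within either group. The change was 0.23 ± 0.08 (1.17-fold, adjusted p = 0.0432). The call was lost without control replicate 2 (0.13, adjusted p = 0.0506) and without mutant replicate 1 (0.12, adjusted p = 0.185), and the adjusted p over all alternatives ran from 2.03e-08 to 0.185. Megakaryocytes and macrophages are also known sources of Tgfb1, and their markers moved as given above; their part was not tested.

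Among 30 other ligands of the family, 29 were found in the table and only 9 had enough counts to be tested; 5 rose, 1 fell and 3 were not called, where 28.3% of all tested genes were called higher. The other 2 TGF-beta ligand genes were too scarce to test: the control pools gave 3 and 2 counts of Tgfb2 and 4 and 1 of Tgfb3, the mutant pools 19 and 4 of Tgfb2 and 4 and 9 of Tgfb3. Counts of Gdf9, a ligand known from the oocyte, were 47 and 26 (control) and 463 and 254 (mutant), a change of 3.45 ± 0.17 (adjusted p = 2.26e-11). Gdf3, a ligand of the nodal type, was the most abundant of the risers, from 66.6 ± 3.13 to 75.1 ± 2.33 CPM, and its call was lost in 4 of 14 alternatives. Gdf11 (1.28), Gdf10 (0.99) and Bmp2 (2 and 2 control counts, 11 and 13 mutant counts) rose from under 1 CPM, and Amh fell (-1.14). The calls of Gdf11, Gdf10 and Amh were lost in 3, 5 and 4 of 13 alternatives. Of the 9 tested ligands 4 would have passed the filter on the control libraries alone, 2 of them higher and 1 lower; the median was 0.16 over these 4 and 0.64 over all 9, which include Bmp2, Gdf10 and Gdf11, tested only through their mutant counts. The rises numbered 2 with DESeq2, with the stricter filter and without mutant replicate 1.

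Both TGF-beta receptor genes rose. Tgfbr1, the type I receptor, measured 16.9 and 18.6 CPM in control pools against 27.7 and 25.3 CPM in mutant pools. The lower mutant was above the higher control by more than the spread within either group. Its change was 0.59 ± 0.09 (1.5-fold, 95% interval 1.32 to 1.71, adjusted p = 2.8e-05). Tgfbr2, the type II receptor that binds the ligand, was the scarcer of the pair, with 4.38 and 4.17 CPM in controls and 7.59 and 7.5 CPM in mutants, again with no overlap. Its change was 0.82 ± 0.15 (1.76-fold, 95% interval 1.43 to 2.18, adjusted p = 0.000129). Both calls held in all 14 alternatives, with log2 fold changes from 0.51 to 0.72 for Tgfbr1 and from 0.77 to 0.96 for Tgfbr2. Tgfbr2 made up a similar part of the pair's counts in all libraries: 20.6% and 18.3% in controls and 21.5% and 22.9% in mutants, with Wilson 95% intervals that overlapped among all 4 libraries.

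Among the other receptors, Bmpr1a and Acvr1b rose about 7-fold. Of 17 other receptor and co-receptor genes 10 were tested, 6 rose, 1 fell and 3 were not called, with a median of 1.04; of the 9 that the controls alone would have passed, 5 rose and 1 fell (median 0.96), where 25.9% of all such genes were called higher. Bmpr1a, a type I receptor for BMPs that acts on Smad1 and Smad5, had 12.9 and 13.3 CPM in controls and 87.0 and 96.8 CPM in mutants (2.81 ± 0.08, adjusted p = 3.88e-14). Acvr1b, a type I receptor for activins that acts on Smad2 and Smad3, had 7.0 and 7.7 CPM in controls and 52.5 and 50.9 CPM in mutants (2.82 ± 0.09, adjusted p = 1.38e-13). Both went from below the level of Tgfbr1 in the controls to well above it in the mutants, on the CPM scale and per length. Acvrl1, a type I receptor known from endothelium, rested on 6 and 8 control counts against 43 and 30 mutant counts (2.53). Acvrl1 was tested only through its mutant counts. Endothelial markers moved as given above, and their part was not tested.

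Named here after their values were seen, the type II receptor genes Bmpr2 (0.96 ± 0.13) and Acvr2a (1.12 ± 0.24) also rose, and so did Bambi, a decoy receptor that lacks a kinase and blocks signalling, from 9.71 ± 0.967 to 55.5 ± 0.100 CPM (2.51 ± 0.09). The co-receptor gene Eng fell, from 28.7 ± 0.270 to 18.9 ± 0.0233 CPM (-0.60 ± 0.08). Tgfbr3, the co-receptor betaglycan, had 66.7 and 92.6 CPM in controls and 50.4 and 62.6 CPM in mutants. Its groups did not overlap, but the replicates of each were far apart, and its change of -0.50 ± 0.25 was not called (adjusted p = 0.201). It was called lower in 6 of 14 alternatives, limma-voom (adjusted p = 0.0061) and the fit without robust dispersion (0.00592) among them, over a range from 1.11e-17 to 0.426. Acvr1 (0.81, adjusted p = 0.0546) was not called here but was called higher in 6 of 14 alternatives, with values from 0.41 to 1.42 when a library was left out. Acvr2b (-0.37) was called in no alternative, and its values ran from -0.65 to -0.08 when a library was left out.

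**Figure D2:**
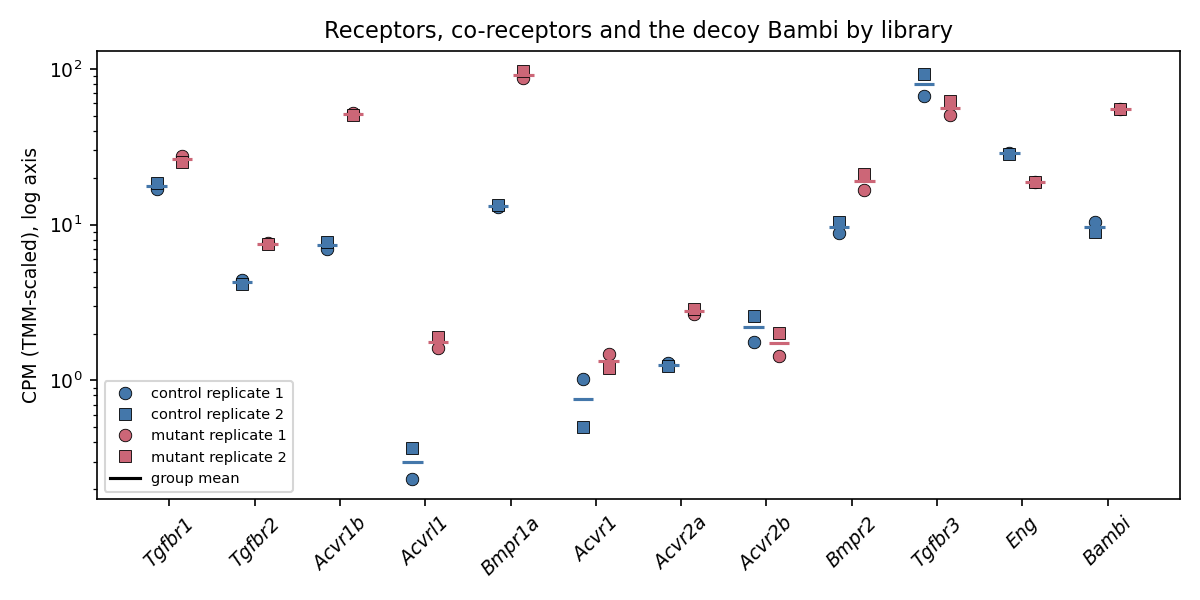
CPM (log axis) of the 2 TGF-beta receptors, the other tested type I and type II receptors, the co-receptors Tgfbr3 and Eng and the decoy Bambi in each library, with lines at group means. Acvr1b, Bambi and Bmpr1a have group means of 7.35, 9.71 and 13.1 CPM in controls and 51.7, 55.5 and 91.9 CPM in mutants.

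The 2 Smads that carry TGF-beta signals changed little, and not alike. Smad2 measured 56.9 and 58.3 CPM in control pools against 56.3 and 55.4 CPM in mutant pools. The gap between the lower control and the higher mutant was smaller than the difference between the control replicates, and the change of -0.04 ± 0.07 was not called (adjusted p = 0.607, 95% interval -0.19 to 0.10). Smad3 had 66.4 and 65.3 CPM in controls and 52.2 and 51.9 CPM in mutants, a gap far wider than the spread within either group. It fell by 0.34 ± 0.07 on the log2 scale (adjusted p = 0.000364) and was called lower in all 14 alternatives, from -0.38 to -0.20. Smad3 thus went from 53.9% and 52.8% of the counts of the Smad2 and Smad3 pair in controls to 48.1% and 48.4% in mutants, with Wilson 95% intervals of 52.1 to 55.6 and 50.9 to 54.7 against 46.3 to 49.9 and 46.0 to 50.8. Scaled by exon length, Smad3 held 64.9% and 63.9% in controls and 59.5% and 59.8% in mutants, and so stayed the more abundant of the 2.

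The BMP Smads gave the widest contrast between paralogs. Counts of Smad1 were 24 and 18 in the control pools against 290 and 212 in the mutant pools, or 0.881 ± 0.0799 against 12.2 ± 1.79 CPM. On the CPM scale both mutants stood more than 10 times above both controls. The change was 3.76 ± 0.20 (95% interval of the fold 10.1 to 18.1, adjusted p = 6.73e-11), and 124 of the 13140 tested genes had a larger log2 fold change. It held in all 14 alternatives, from 3.63 to 3.92. Smad5 had 35.9 and 37.6 CPM in controls and 36.6 and 36.6 CPM in mutants, with overlapping groups and a change of -0.01 ± 0.08 (adjusted p = 0.956, 95% interval -0.17 to 0.16).

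Smad5 therefore made up 97.5% and 97.9% of the counts of the Smad1 and Smad5 pair in controls and 77.0% and 73.1% in mutants (Wilson 95% intervals 96.2 to 98.3, 96.6 to 98.6, 74.6 to 79.2 and 69.9 to 76.1). The summed level of the pair was 36.9 and 38.5 CPM in controls and 47.5 and 50.1 CPM in mutants, while that of Smad2 and Smad3 was 123.3 and 123.6 CPM in controls and 108.5 and 107.3 CPM in mutants. Smad9, the remaining BMP Smad, was at 0 in 3 libraries, reached 2 counts in mutant replicate 2 and was not tested.

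**Figure D3:**
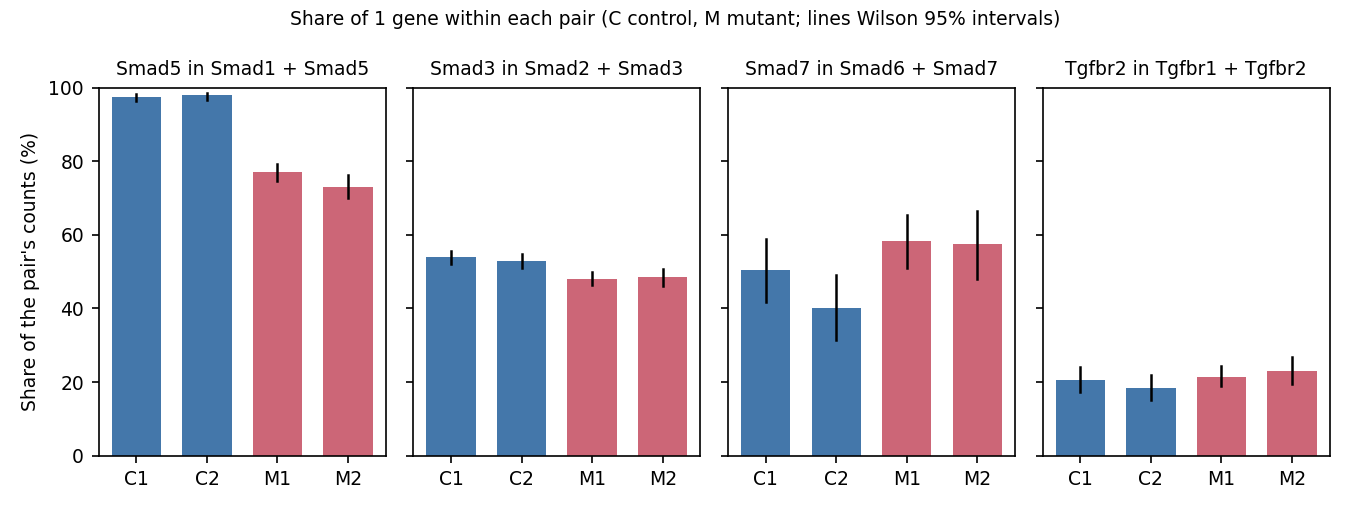
Share (%) of the pair's counts held by the named gene in each library (C control, M mutant), with Wilson 95% intervals that cover counting error only. Smad5 holds 97.5% and 97.9% in controls and 77.0% and 73.1% in mutants, the Smad3 intervals are separate, those of Smad7 overlap in part and those of Tgfbr2 overlap throughout.

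The common partner Smad4 measured 32.3 and 33.0 CPM in control pools against 38.2 and 37.4 CPM in mutant pools. The groups did not overlap, and the change was 0.21 ± 0.08 (1.16-fold, adjusted p = 0.0263). The call did not hold when any of the 4 libraries was left out (adjusted p from 0.0661 to 0.113), nor with DESeq2 (0.113) or without the filter (0.0992), and over all alternatives the adjusted p ran from 0.000848 to 0.113.

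The inhibitory Smads were both scarce, and 1 of them rose. Smad7, which blocks the TGF-beta receptor complex, had 2.50 and 2.11 CPM in controls and 3.85 and 3.88 CPM in mutants, or 64 and 46 counts against 102 and 61. The change was 0.74 ± 0.19 (1.67-fold, adjusted p = 0.00363), with adjusted p = 0.0702 under DESeq2 in a range that began at 0.000708. Smad6, which acts mainly on the BMP branch, had 2.46 and 3.16 CPM in controls and 2.76 and 2.86 CPM in mutants, so that both mutants lay between the controls (adjusted p = 0.99, 95% interval -0.43 to 0.44). The 4 libraries held 45 to 73 counts of Smad6 each. The Smad7 share of the pair was 50.4% and 40.0% in controls and 58.3% and 57.5% in mutants, and the intervals of control replicate 1 (41.8 to 58.9) and of both mutants overlapped. The interval of control replicate 2 (31.5 to 49.1) overlapped that of mutant replicate 2 (48.0 to 66.5) but not that of mutant replicate 1 (50.9 to 65.3).

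**Figure D4:**
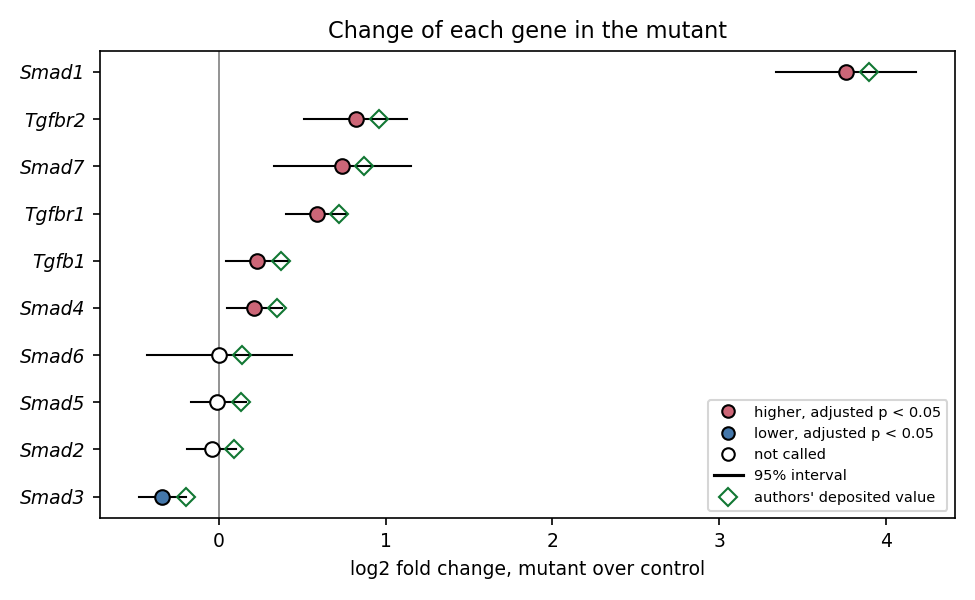
Log2 fold change of mutant over control for each gene with its 95% interval (filled circles are called at adjusted p 0.05, open circles are not), and the authors' deposited value as a diamond. The Smad1 interval, 3.34 to 4.18, lies apart from those of the other 9 genes, and every diamond lies to the right of its circle.

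Per kilobase of exon, the order in the controls was Tgfb1 (40.0 CPM per kb), Smad3 (11.9), Smad4 (8.80), Smad2 (6.56), Smad5 (4.96), Tgfbr1 (2.72), Smad6 (0.877), Tgfbr2 (0.522), Smad7 (0.510) and Smad1 (0.141). Only the neighbours Tgfbr2 and Smad7 overlapped between the libraries. In the mutants Smad4 (10.2 CPM per kb) stood above Smad3 (9.40), Smad1 (1.95) had moved from the last place to the seventh, above Tgfbr2 (0.922), Smad6 (0.876) and Smad7 (0.855), and no neighbours overlapped. The genes at the low end of this order are also those with the fewest counts.

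In the authors' deposited table, the log2 fold change was 3.90 for Smad1, 0.96 for Tgfbr2, 0.87 for Smad7, 0.72 for Tgfbr1, 0.37 for Tgfb1, 0.35 for Smad4 and -0.20 for Smad3. The same 7 genes passed an FDR of 0.05 in the authors' deposited table, where 55.3% of 13234 genes did, 37.7% higher and 17.7% lower. The values there exceed those of the TMM scale by about the shift seen with library totals alone, under which the median of all tested genes moved from 0.01 to 0.15 and Smad1 read 3.90, Tgfbr2 0.96 and Smad3 -0.20. The sign of Smad2, Smad5 and Smad6 depended on scaling, filter or a left-out library, and none of the 3 was called in any alternative.

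**Figure D5:**
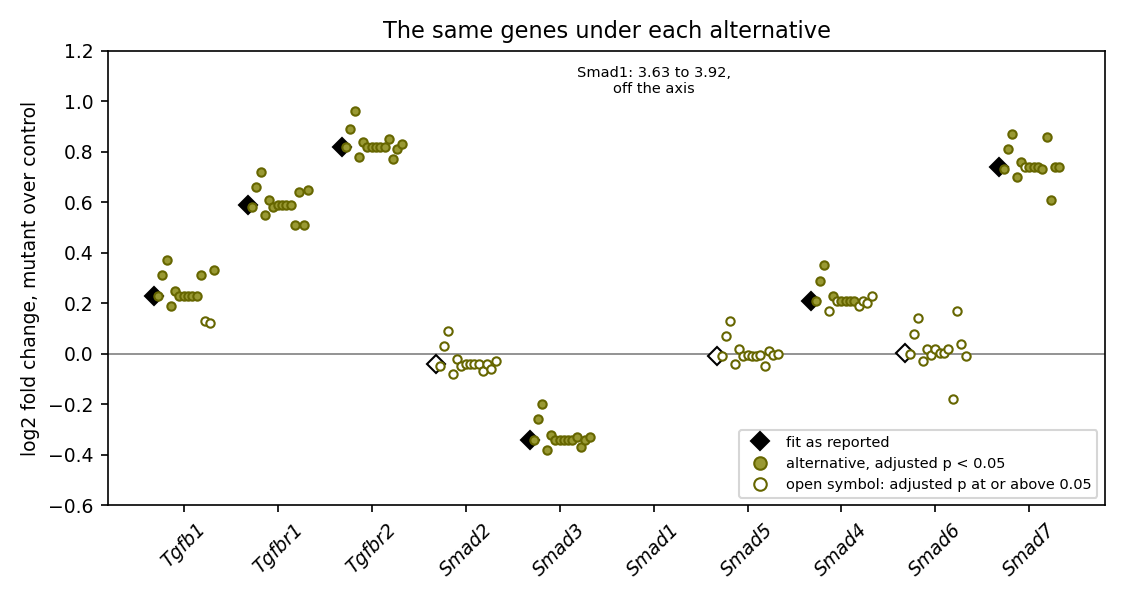
Log2 fold change of each gene in the fit as reported (diamonds) and under the 14 alternatives (circles), filled where adjusted p is under 0.05; Smad1, at 3.63 to 3.92, is off the axis. Open circles appear for Tgfb1, Smad4 and Smad7 among the called genes.

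Of 19 listed genes that store, release or block the ligands, 11 were tested, 7 rose, 1 fell and 3 were not called (median 1.24), where 28.3% of all tested genes were called higher. The rises numbered 3 with DESeq2 and 4 without mutant replicate 1. Of the 8 that the controls alone would have passed, 5 rose and 1 fell (median 0.80), where 25.9% of all such genes were called higher. Itgav, the integrin chain that helps release TGF-beta from its latent complex, went from 5.83 ± 0.566 to 33.4 ± 2.17 CPM (2.52 ± 0.11), and Lrrc32, which holds latent TGF-beta on the cell surface, from 1.28 ± 0.263 to 3.24 ± 0.00319 CPM (1.35 ± 0.23). The other listed integrin chains, Itgb6 and Itgb8, had 0 or 1 count in each library and were not tested. Ltbp4, a latent TGF-beta binding protein, changed by 1.38 from 12 and 10 control counts, a call lost with DESeq2 (adjusted p = 0.0755), while its relative Ltbp1 fell from 7.98 ± 0.569 to 4.65 ± 0.705 CPM (-0.80 ± 0.15). Itgav and Lrrc32 are also expressed by megakaryocytes, whose markers moved as given above, and mesenchymal cells make Ltbp proteins; the part of these cells was not tested.

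Of 27 tested genes that bind, modify or oppose the Smads, 7 rose, 7 fell and 13 were not called, with a median of 0.01; these counts are near the shares over all tested genes (28.3% higher, 29.2% lower) and set the list apart in neither direction. Tgif1, a co-repressor of Smad2 and Smad3, went from 6.08 ± 0.689 to 14.2 ± 0.845 CPM (1.21 ± 0.13), while its relative Tgif2 fell (-1.04). Of the Tgif2 exon bases, 61.6% are overlapped by genes on the opposite strand, and the use of strand is not known, so its counts are uncertain, and its call was lost in 3 of 14 alternatives. Ski, another co-repressor, fell from 40.4 ± 1.07 to 29.6 ± 0.537 CPM (-0.45 ± 0.08), and Ctdspl, of a phosphatase family that acts on Smads, fell by 0.80. Foxh1, a DNA-binding partner of Smad2, rose from 30.5 ± 1.63 to 43.2 ± 3.66 CPM (0.51 ± 0.08). Zfyve9, the anchor that presents Smad2 and Smad3 to the receptor, changed by 1.09 ± 0.28, a call lost in 3 of 14 alternatives. In the non-Smad branch 5 genes rose (Xiap 0.78, Tab2 0.51, Map2k4 0.35, Rock1 0.33 and Map3k7 0.15) and 5 fell (Map2k3 -0.51, Traf4 -0.49, Daxx -0.31, Pard6a -0.29 and Tab1 -0.16) of 14 tested, with a median of 0.02, where 28.3% of all tested genes were called higher and 29.2% lower. Map3k7, the TGF-beta activated kinase Tak1, lost its call in 5 of 14 alternatives, Tab1, its activator, in 8 and Pard6a in 2.

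Genes known as targets of TGF-beta or BMP signalling were mostly higher. The list was not split by whether signalling raises or lowers a gene, so its counts give no direction of pathway activity. Of 33 listed, 24 were tested, 18 rose, 3 fell and 3 were not called, with a median of 1.09; of the 20 that the controls alone would have passed, 16 rose, where 25.9% of all such genes were called higher. Cdkn1a, whose product holds back the cell cycle, rose from 5.25 ± 0.364 to 37.3 ± 0.891 CPM (2.83 ± 0.10), and Bhlhe40 (2.76) and Dusp4 (2.71) rose from under 1 CPM. Dusp4, with 5 and 3 control counts, was tested only through its mutant counts. Named after their values were seen, the BMP target genes Id1 (from 18.2 ± 1.26 to 48.3 ± 1.86 CPM, 1.41 ± 0.08), Id2 (1.57 ± 0.23) and Id3 (1.91 ± 0.25) rose. In the same list Smad6, Hey1 and Ltbp3 were not called. Id4, Atoh8 and Hamp were among the 9 genes too scarce to test. Junb (-0.57), Klf10 (-0.49) and Tsc22d1 (-0.47) fell. Most of these targets also respond to other signals, the list holds Smad6 and Smad7, and Col1a1 in it is a mesenchymal marker. Without the genes that another pathway list holds, 15 of 19 rose and 3 fell, with a median of 1.51. Col1a1 stayed among the 15. Of the 16 that the controls alone would have passed, 13 rose and 3 fell (median 1.46). The share called higher over all such genes was 25.9%. Phosphorylated Smad protein, the direct readout of the pathway, was not measured in these libraries.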

How the data were processed

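Counts per gene from 4 mRNA-seq libraries (2 control, 2 mutant; groups from the titles) were used. The tools named per the submitters' processing notes are Bowtie, edgeR and FastQC, with mm9 as the build; versions, the counting of multi-mapped reads and the use of strand are not given in the sources used here. The authors deposited whole-number counts, taken as raw because library totals differ, and a comparison table of their own, which holds log2 fold change and p-value columns per the file headers. The count columns named WT were matched to control1 and control2 by their numbers, since control is the one remaining group; no label states this outright.

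Of 35939 rows, 12 with NA were left out. The test was edgeR 4.0.16 under R 4.3.3 (filterByExpr, TMM, estimateDisp, glmQLFit with robust, glmQLFTest), two-sided, over 13140 genes. The common dispersion was 0.00232, so small changes pass. Standard errors were derived by dividing the size of each log2 fold change by the root of its F value. Exon lengths and overlaps came from GENCODE M21 (GRCm38), not the authors' build, and promoter coordinates are those of the RefSeq table. With 2 libraries a group the smallest exact permutation p is 0.33, so shares carry Wilson 95% intervals (counting error only) and no test. Members and gene lists were chosen with earlier results of these data known. Of 6 pathway lists, up to 3 risers and 3 fallers with at least 1 CPM in the higher group were named, plus all genes of counts of 5 or fewer where useful; others are said to be chosen after their values were seen. In simulated counts for the 13140 genes of this comparison, the fit was tested and recovered 56 of 67 genes at 1.5-fold, 58 of 67 at 2-fold and 65 of 66 at 4-fold. Among the unchanged genes 5 were called. Only these few genes were changed, with the common dispersion for every gene. The simulation thus differs from these data, where 57.5% of tested genes were called. Alternatives were RLE and upper quartile scaling, library totals alone, DESeq2 1.42.0, a filter at CPM above 1 in 2 libraries, one at 1 count, limma-voom (limma 3.58.1), edgeR's exact test, no robust dispersion, a replicate block and each library left out.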

Additional observations from a re-analysis of the deposited data

How the results depend on the processing

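Smad1, Tgfbr1, Tgfbr2 and Smad3 kept direction and call in all 14 alternatives. With DESeq2, 4 of the 10 genes were called higher; with a library left out, 4 to 5 were, and 1 lower each time. The sign of uncalled genes was not stable: Smad2 read 0.03 and 0.09 and Smad5 0.07 and 0.13 under upper quartile and total count scaling, Smad5 also 0.02 with CPM above 1 in 2 libraries and -0.05 to 0.01 with a library left out (0.01 without control replicate 2), and Smad6 -0.03 without the filter, -0.00358 with DESeq2 and -0.18 to 0.17 with a library left out (-0.18 without control replicate 1, -0.01 without mutant replicate 2). The cause was not tested. Over all genes, 3723 were higher and 3835 lower; library totals alone gave 5112 and 2553, upper quartile scaling 4423 and 3088, and left-out libraries 3034 to 3520 and 3200 to 3874.

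Of the lists, ligands had 2 rises and 0 falls with the stricter filter (fewer genes tested) and with DESeq2, and 2 to 6 rises and 0 to 1 falls with a library left out; the 2 rises came without mutant replicate 1, and the fall was lost without control replicate 1, control replicate 2 or mutant replicate 2. Receptors had 2 falls with limma-voom, the exact test, no robust dispersion and the replicate block, and 1 to 2 with a library left out, the second without either control. Genes of latency and release had 3 rises with DESeq2 and 4 to 7 with a library left out (4 without mutant replicate 1). Smad partners had 12 rises with library totals alone and 4 to 6 with a library left out (4 without control replicate 1 or mutant replicate 1). The non-Smad branch had 3 falls with library totals alone and 3 to 5 with a library left out (3 without mutant replicate 2). Scaled by exon length, the mean shares in control and mutant were 97.2% and 71.7% for Smad5 (97.7% and 75.0% unscaled), 64.4% and 59.6% for Smad3 (53.3% and 48.3%), 37.0% and 49.4% for Smad7 (45.2% and 57.9%) and 16.1% and 18.5% for Tgfbr2 (19.4% and 22.2%), each in the direction of the unscaled shares.

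The replicate numbers are not said to pair the pools; deviations of same-numbered libraries had r = 0.225 across genes. With the replicate block 6 of the 10 genes were higher and 1 lower, as without it, and 4135 and 4267 over all genes. Depth limits Smad6, Smad7 and the scarce ligands, and 2 libraries a group limit every p.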
